A study of Mus musculus with 12 samples.

Results

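Nuclear genes for subunits of oxidative phosphorylation were described in RNA-seq of mouse hippocampal tissue. Membership was decided by gene name alone: the Nduf, Sdh, Uqcr, Cox4 to Cox8 and Atp5 families. Names marked as pseudogenes by -ps and clone names ending in Rik were left out. The rule gave 87 of the 27978 genes in the deposited table, 39 for complex I, 4 for complex II, 8 for complex III, 19 for complex IV and 17 for complex V. Of these, 86 had a mean of at least 1 FPKM (fragments scaled to the length of the transcript and to the sequencing depth) and were tested, and Cox7b2 was not. Ndufa4 and its relative Ndufa4l2, whose names recall complex I, are counted here with complex IV. Cyc1, Ndufab1 and Atpif1, whose products also belong to or bind these complexes, fall outside the naming rule.

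The study transplanted fecal microbiota into mice and then measured gene levels in the hippocampus of 3 groups with 4 libraries each. The groups are FMT-SP, which the series text calls FMT-DSS+SP and in which SP is the neuropeptide substance P, FMT-DSS, and FMT-CON. The labels give no strain, genotype, sex or age, do not spell out DSS or CON, and do not say when substance P was given. Nor do they state that the libraries came from separate animals, so the p-values below measure only the spread between these samples. All 3 groups received a transplant.

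Oxidative phosphorylation runs in the inner mitochondrial membrane. Complexes I and II pass electrons from NADH and succinate to ubiquinone, complex III passes them on to cytochrome c, and complex IV hands them to oxygen, while I, III and IV pump protons that complex V, the ATP synthase, lets flow back to make ATP. Most subunits are encoded in the nucleus and a few, at the core of all but complex II, in mitochondrial DNA. Neurons depend on this pathway to restore ion gradients after firing, and most of its subunits are among the abundant messages of brain tissue.

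The estimated depth was 31.6 to 37.1 M fragments. The 5 hippocampal markers Prox1, Zbtb20, Wfs1, Fibcd1 and Neurod6 were detected in every library, with a summed level of 143.5 to 174.8 FPKM in FMT-SP, 119.8 to 168.4 in FMT-DSS and 113.0 to 161.2 in FMT-CON. Several libraries stood apart. The 13 mitochondrially encoded subunit genes took 24.0% of all FPKM in FMT-SP 4, 29.0% in FMT-DSS 4 and 27.7% in FMT-CON 4, against 15.9% to 20.3% in the other 9 libraries. FMT-CON 1 was highest in the thalamus markers Tcf7l2, Prkcd and Rgs16, whose sum was 8.43 to 75.03 FPKM in FMT-SP, 14.2 to 27.3 in FMT-DSS and 13.4 to 134.9 in FMT-CON. FMT-CON 3 held pituitary message (Gh at 2899 FPKM). The summed level of 5 choroid plexus markers was 18.03 to 3823 FPKM in FMT-SP, 1303 to 2921 in FMT-DSS and 30.3 to 3597 in FMT-CON, and that of 5 striatum markers 29.8 to 63.3 in FMT-SP, 54.4 to 185.5 in FMT-DSS and 31.8 to 95.7 in FMT-CON. FMT-SP 2 was highest in the haemoglobin and other erythrocyte markers, whose sum was 117 to 1239 FPKM in FMT-SP, 202 to 661 in FMT-DSS and 128 to 357 in FMT-CON. FMT-DSS 2 and FMT-DSS 4 were low in most of the 5 microglia markers, with median deviations of -0.98 and -0.87 on the log2(FPKM + 1) scale. The low markers in both were Cx3cr1, P2ry12 and Tmem119. In FMT-DSS 2, Csf1r stood at 19.1 FPKM and C1qa at 59.2, the highest C1qa value of the 12 libraries. The sum of the 5 was 84.9 FPKM in FMT-DSS 2 and 54.4 in FMT-DSS 4. The summed level of these markers was 75.5 to 88.7 FPKM in FMT-SP, 54.4 to 84.9 in FMT-DSS and 73.8 to 87.8 in FMT-CON.

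The subunit genes were abundant as a class. Of the 87, 77 averaged 30 FPKM or more, a level that 1970 of the 12559 tested genes reached, and together they held 3.53% to 3.99% of all FPKM in a library. FPKM is scaled to transcript length, so levels can be set side by side between genes. Complex IV held the 4 highest members. Cox4i1, the general form of subunit 4, was the highest member at a mean of 772 FPKM over the 12 libraries, followed by Cox8a at 714, Cox6a1 at 546, Cox6b1 at 538 and Atp5b, the catalytic beta subunit of the ATP synthase, at 514. The median member of complex IV stood at 164 FPKM, against 195 in complex V, 138 in complex III, 87.8 in complex I and 84.2 in complex II. Over the 12 libraries the median coefficient of variation was 11.1% for the members, 11.8% for all tested genes of 30 FPKM or more, and 16.3% for all tested genes.

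**Figure D1:**
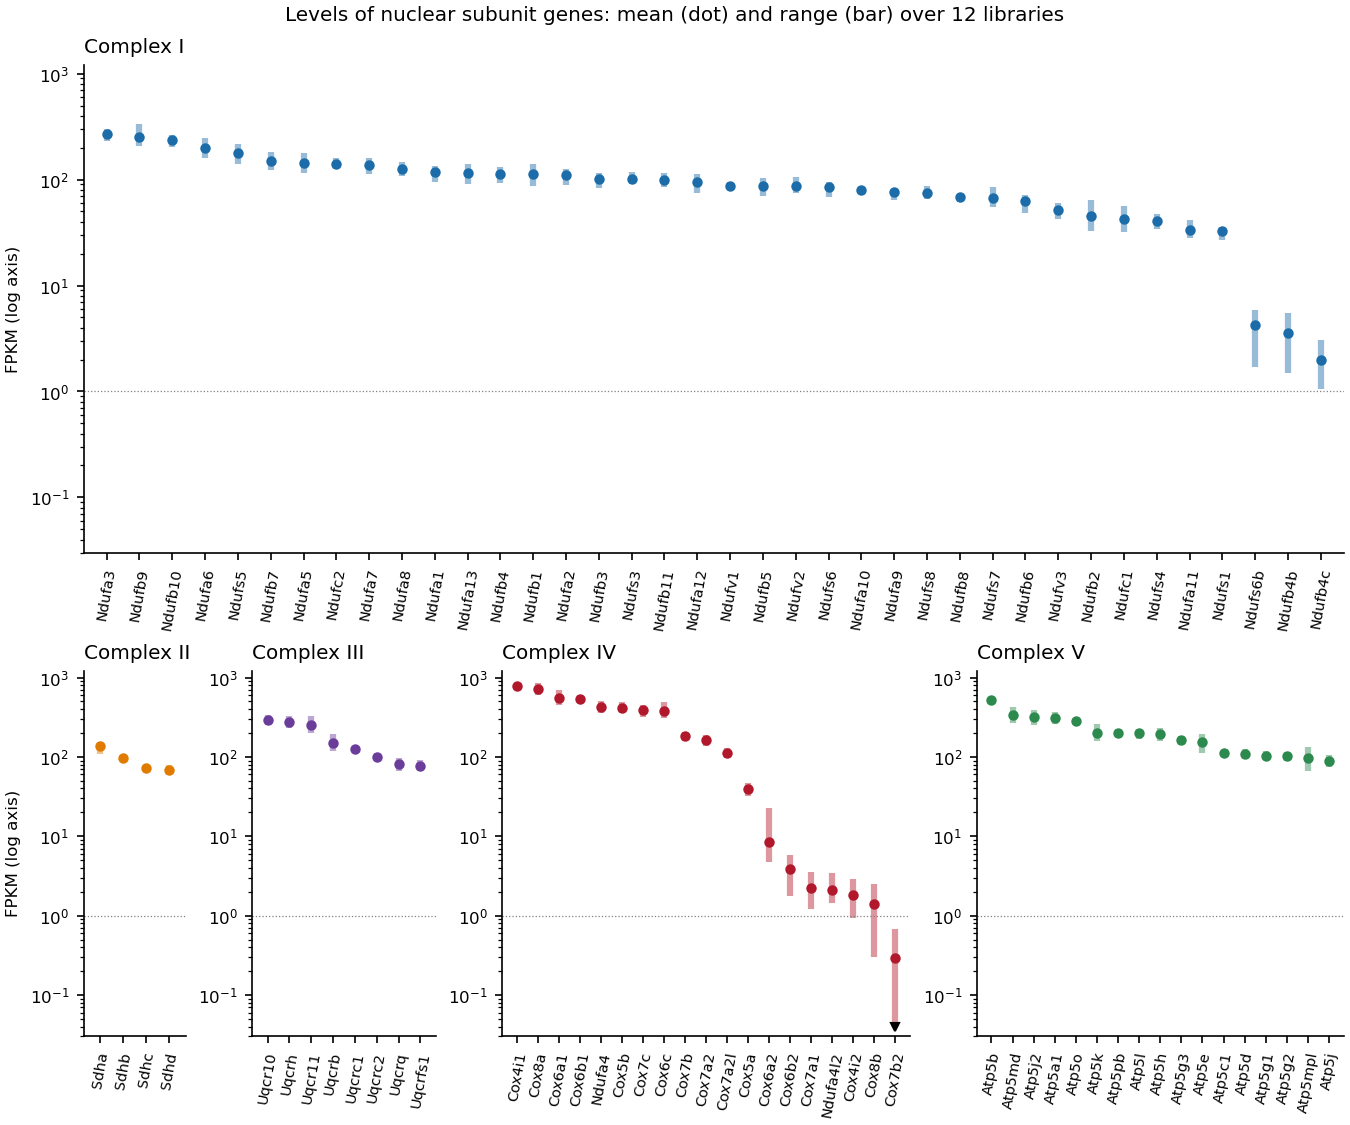
Level of 86 of the 87 subunit genes in FPKM on a log axis, by complex, as the mean (dot) and the range (bar) over all 12 libraries; the dotted line is the 1 FPKM limit for testing and the triangle marks a library in which Cox7b2 was listed at 0. Cox4i1 tops the plot at a mean of 772 FPKM, and the tissue forms of complex IV and the extra gene copies of complex I sit between 0.289 and 8.46 FPKM.

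In complex I, the 29 accessory subunits, which surround and stabilise the enzyme, ranged from 33.8 FPKM for Ndufa11 to 268 for Ndufa3. The 7 catalytic core subunits lay between 32.6 and 101 FPKM. Ndufs3 averaged 101 FPKM, Ndufv1, which binds NADH and its flavin, 87.8, Ndufv2 86.3, Ndufs8 74.9 and Ndufs7, which carries the last iron-sulphur cluster before ubiquinone, 67.6. Ndufs1, the largest core subunit and another iron-sulphur protein, was the lowest of the 36 genes that are not extra copies, at 32.6 FPKM. The 3 extra gene copies, Ndufs6b, Ndufb4b and Ndufb4c, averaged 4.26, 3.55 and 1.98 FPKM, well below Ndufs6 at 84.3 and Ndufb4 at 113. The gene annotation used for transcript lengths lists Ndufs6b as a processed pseudogene, which the naming rule kept. Transcripts at least 95% identical over at least 50% of their length to another annotated gene were found for 10 of the 83 members with a transcript, 9 such genes for Atp5l, 3 each for Atp5h and Uqcrb, 2 for Atp5g2 and 1 each for Ndufs3, Ndufs5, Ndufs6, Ndufb11, Atp5k and Atp5o. The authors' counting could split reads between these and their copies, so their values are uncertain.

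Complex II is built wholly from nuclear genes. Sdha, the flavoprotein that oxidises succinate, averaged 136 FPKM and Sdhb, its iron-sulphur partner, 96.7, while the membrane anchors Sdhc and Sdhd were at 71.8 and 69.0. In complex III, the small accessory subunits Uqcr10, Uqcrh and Uqcr11 were highest at 292, 275 and 250.1 FPKM. The core proteins Uqcrc1 and Uqcrc2 followed at 126 and 99.7, and Uqcrfs1, the Rieske iron-sulphur protein that receives electrons from ubiquinol, was lowest of the 8 at 77.5.

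Complex IV showed the widest split, between 12 general forms at 39.0 to 772 FPKM and 7 tissue forms at 0.289 to 8.46. The muscle and heart form Cox6a2 contributed 1.43% ± 0.32 of the summed Cox6a1 and Cox6a2 level in FMT-SP, 1.19% ± 0.32 in FMT-DSS and 2.02% ± 1.55 in FMT-CON (SD, n = 4 each). Cox4i2, best known from lung, made up 0.128% to 0.374% of subunit 4 message across the 12 libraries, and the muscle form Cox7a1 made up 0.747% to 2.31% of Cox7a1 plus Cox7a2. The testis forms Cox6b2 and Cox7b2 averaged 3.89 and 0.289 FPKM, the muscle form Cox8b 1.38 and the hypoxia-inducible Ndufa4l2 2.11. By the depth estimate, Cox8b rested on a median of 17.9 fragments a library and Cox7b2 on 4.51, whereas the least sampled member above 30 FPKM, Ndufa11, rested on 664. Values of the tissue forms are therefore coarse. Among the general forms Cox5a was the lowest at 39.0 FPKM, while Cox5b stood at 416, Ndufa4 at 424, Cox7c at 387, Cox6c at 382, Cox7b at 182, Cox7a2 at 164 and Cox7a2l, which joins complexes III and IV, at 112.

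Cox6a2 had a coefficient of variation of 56.2%, second among the members to that of Cox7b2 at 74.7%. It measured 7.80, 5.64, 10.4 and 6.76 FPKM in FMT-SP 1 to 4, 6.89, 4.67, 8.63 and 6.28 in FMT-DSS 1 to 4, and 22.8, 6.89, 6.18 and 8.62 in FMT-CON 1 to 4. FMT-CON 1 stood alone, and the other libraries of the 3 groups overlapped. FMT-CON 1 is also the library highest in the 3 thalamus markers. It had the highest summed level of the oligodendrocyte markers (2294 FPKM) and of the ependymal markers (35.9 FPKM) as well. The part of these markers' cells in the Cox6a2 value was not tested. The summed level of the muscle markers Ckm, Acta1, Myh4 and Tnnt3 was at its lowest of the 12 libraries in FMT-CON 1, at 3.10 FPKM. Of this sum, 2.79 was Acta1, the only 1 of the 4 with a mean of at least 1 FPKM. Tnnt3 stood at 0.306 FPKM there, in a range of 0.0234 to 3.60 over the 12 libraries. The part of muscle message in the Cox6a2 value was not tested.

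In complex V, the subunits of the catalytic F1 head spanned 108 FPKM for Atp5d to 514 for Atp5b, with the partner alpha subunit Atp5a1 at 306. Atp5c1, the gamma shaft that turns inside the head, was the steadiest of all members. It read 113, 109, 116 and 107 FPKM in FMT-SP 1 to 4, 110.0, 111, 112 and 110.5 in FMT-DSS 1 to 4, and 113, 108, 117 and 109.9 in FMT-CON 1 to 4, a coefficient of variation of 2.76% over the 12 libraries. The 3 groups overlapped throughout. In the membrane part, Atp5md and Atp5j2 led at 337 and 316 FPKM, and Atp5j, coupling factor 6 of the peripheral stalk, was lowest of the complex at 88.8.

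The rotating c-ring is built from 1 mature protein that 3 nuclear genes, Atp5g1, Atp5g2 and Atp5g3, encode with different targeting sequences. Atp5g3 supplied 44.3% ± 0.72 of their summed level in FMT-SP, 44.4% ± 1.49 in FMT-DSS and 44.9% ± 0.56 in FMT-CON (SD, n = 4 each). Atp5g1 supplied 28.5% ± 0.41 in FMT-SP, 27.3% ± 2.04 in FMT-DSS and 28.2% ± 0.94 in FMT-CON, and Atp5g2 supplied 27.2% ± 0.72, 28.2% ± 1.22 and 26.8% ± 1.33 in these groups. The sum of the 3 genes was 362.3 ± 24.7 FPKM in FMT-SP, 362.6 ± 30.8 in FMT-DSS and 388 ± 16.7 in FMT-CON. For each gene the shares of the 3 groups overlapped from library to library.

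The promoters of these 3 genes are shown because they drive 1 protein from unlike control regions, together with that of Cox6a1, the general partner of Cox6a2. Each run is the 250 bases before the RefSeq transcript start (GRCm38.p6), in the direction of transcription, with capitals marking letters that match a searched motif. The regions are chr11:96075632-96075881 on the minus strand for Atp5g1, chr15:102671048-102671297 on the minus strand for Atp5g2, chr2:73911327-73911576 on the minus strand for Atp5g3 and chr5:115348959-115349208 on the minus strand for Cox6a1.
Atp5g1: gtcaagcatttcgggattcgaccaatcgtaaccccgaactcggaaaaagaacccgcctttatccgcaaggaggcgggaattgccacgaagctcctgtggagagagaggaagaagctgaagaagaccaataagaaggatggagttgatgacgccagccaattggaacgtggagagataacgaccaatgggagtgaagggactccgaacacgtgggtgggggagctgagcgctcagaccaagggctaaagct
Atp5g2: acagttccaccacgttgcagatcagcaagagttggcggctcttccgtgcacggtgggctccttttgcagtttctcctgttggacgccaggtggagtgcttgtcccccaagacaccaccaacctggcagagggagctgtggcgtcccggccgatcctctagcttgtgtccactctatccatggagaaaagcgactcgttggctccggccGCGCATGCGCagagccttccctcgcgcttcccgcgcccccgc
Atp5g3: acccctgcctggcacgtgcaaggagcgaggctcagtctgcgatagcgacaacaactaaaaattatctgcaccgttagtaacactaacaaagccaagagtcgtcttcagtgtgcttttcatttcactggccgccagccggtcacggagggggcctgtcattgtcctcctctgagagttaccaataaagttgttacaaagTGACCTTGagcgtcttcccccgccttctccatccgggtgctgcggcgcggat
Cox6a1: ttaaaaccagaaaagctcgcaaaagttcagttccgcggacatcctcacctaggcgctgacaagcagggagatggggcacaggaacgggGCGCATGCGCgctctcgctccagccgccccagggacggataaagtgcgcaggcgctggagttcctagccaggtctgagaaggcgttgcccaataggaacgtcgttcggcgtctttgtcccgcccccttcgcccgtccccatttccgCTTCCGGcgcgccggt

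The motifs searched, on both strands, were GCGCATGC for nuclear respiratory factor 1 (NRF1), CCGGAAG for ETS factors such as GABP, AAGATGG for YY1 and CAAGGTCA for oestrogen-related receptors, all factors known to act on respiratory genes. Of the printed promoters, Atp5g1 held none of the 4, Atp5g2 held the NRF1 letters from 42 bases before the start, Atp5g3 held the receptor letters from 52 bases before it, and Cox6a1 held the NRF1 letters from 162 and the ETS letters from 16 bases before it. A match or its absence says only whether these letters stand in the window. Over the 75 windows of 300 bases (250 before and 50 after the start) that the RefSeq table holds for 70 members, the NRF1 letters occurred in 13.3%, the ETS letters in 22.7%, the YY1 letters in 14.7% and the receptor letters in 5.33%. The corresponding shares were 4.90%, 16.3%, 6.92% and 1.04% in the 12745 windows of other tested genes, and 2.71%, 8.86%, 6.34% and 1.56% in all 32851 windows. In no member window did sites of unlike motifs overlap, and matches of the NRF1 letters that overlapped on the strands were counted once.

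The first comparison set the FMT-DSS hippocampus against that of FMT-CON. No subunit gene passed the test. By limma on log2(FPKM + 1), 0 of 86 members and 0 of 12559 genes (0%) had a Benjamini-Hochberg adjusted p under 0.05, and the smallest adjusted p was 0.966. The direction was uneven all the same: 74 of the 86 members had a lower mean in FMT-DSS, with a median change of -0.13 on the log2(FPKM + 1) scale, against 59.7% of all tested genes and a median of -0.035. At an unadjusted p under 0.05 there were 5 members lower, where 2.81% of all genes were, and 0 higher, where 1.25% were. In bulk tissue, fewer cells of a type and less RNA per cell cannot be told apart. The 5 oligodendrocyte markers also had lower means, 5 of 5 in FMT-DSS than in FMT-CON (median change -0.24) and 5 of 5 in FMT-SP than in FMT-CON (-0.36). Their summed levels were 946 to 1785 FPKM in FMT-SP, 928 to 1748 in FMT-DSS and 1174 to 2294 in FMT-CON. The thalamus, ependymal and pituitary markers, 3 each, were likewise all lower in both comparisons with FMT-CON. Markers of neurons went the other way, 4 of 5 higher in FMT-DSS than in FMT-CON (median change 0.098) and 5 of 5 in FMT-SP than in FMT-CON (0.18). The 4 erythrocyte markers were also higher in both. What part any of these had in the subunits' direction was not tested.

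The 5 were Cox5a of complex IV, the complex I accessory subunits Ndufs4, Ndufa7 and Ndufb3, and Uqcrh, the hinge protein of complex III that sits beside cytochrome c1. Cox5a measured 34.2, 32.3, 39.6 and 38.04 FPKM in FMT-DSS 1 to 4, against 42.4, 39.0, 43.9 and 47.5 in FMT-CON 1 to 4, a change of -0.26 ± 0.10 (SE). Its groups overlapped through FMT-DSS 3 and FMT-CON 2. Ndufs4, a late-assembled subunit whose loss in mice causes a fatal brain disease, measured 36.7, 34.1, 40.7 and 39.1 FPKM in FMT-DSS 1 to 4, against 47.0, 41.4, 44.5 and 42.9 in FMT-CON 1 to 4, a change of -0.22 ± 0.09. It was the 1 member whose groups did not overlap, lower in all FMT-DSS libraries, where 1.23% of all genes were separated in that direction and 0.518% in the other.

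Ndufa7 averaged 128 ± 11.4 FPKM in FMT-DSS, against 149 ± 10.2 in FMT-CON (SD, n = 4 each), a change of -0.23 ± 0.10. Ndufb3 averaged 94.7 ± 13.3 FPKM in FMT-DSS, against 110.4 ± 5.26 in FMT-CON. Uqcrh averaged 254.8 ± 28.7 FPKM in FMT-DSS, against 301 ± 27.5 in FMT-CON. All 3 had overlapping groups. The unadjusted p of the 5 ran between 0.0235 for Cox5a and 0.0466 for Uqcrh, and the adjusted p of each was 0.966. Next in order of p came Cox7b, Ndufs5, Ndufb10, Atp5g1 and Ndufc1, with changes of -0.20, -0.29, -0.18, -0.15 and -0.30 and unadjusted p of 0.0588 to 0.0755. The count of 5 depended on single libraries. It was 12 when FMT-DSS 4 was left out, 10 without FMT-CON 2, 8 without FMT-DSS 3, 3 without FMT-SP 1, 2 without FMT-CON 3 or FMT-CON 4, 1 without FMT-CON 1 or FMT-DSS 1, 0 without FMT-DSS 2, and 1 with FMT-DSS 2 and FMT-DSS 4 both left out. Array weights per library gave 13, quantile normalization 7, the fit without a variance trend 3, and median-ratio rescaling 0. A term for the library number (replicate block) gave 29, and 0 members passed after adjustment. The shares of all genes in these alternatives are not given here, so the counts cannot be set against the share in the fit as reported. In the fit as reported, the libraries of FMT-SP enter the count of 5 only through the shared estimate of the spread.

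By part of the enzymes, 28 of 29 accessory subunits of complex I had lower means in FMT-DSS (median change -0.15), and so did 4 of its 7 core subunits (median -0.0090). In complex III, all 5 accessory subunits were lower (median -0.17), while the core proteins Uqcrc1 and Uqcrc2 were at 0.08 and 0.04. In complex V, all 12 c-ring, stalk and membrane genes were lower, with changes of -0.25 to -0.027, while the F1 head had Atp5a1 at 0.10, Atp5b at -0.06, Atp5c1 at -0.02, Atp5d at -0.13 and Atp5e at -0.22. In complex II, Sdha and Sdhb were at 0.07 and 0.02 and Sdhc and Sdhd at -0.13 and -0.05. Of the general forms of complex IV, 10 of 12 were lower, with Cox4i1 and Cox6a1 at 0.01 and 0.0046. The low genes had the widest changes: Cox6a2 was at -0.51 ± 0.33 (SE), or at -0.13 when FMT-CON 1 was left out, Cox7a1 at -0.31, Ndufs6b at -0.29 and Cox8b at 0.34. None of these changes passed the test.

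FMT-SP against FMT-DSS set the group with substance P beside the one named without it. Here the subunit genes showed no common direction. Limma called 0 of 86 members and 0 of 12559 genes (0%), with a smallest adjusted p of 0.999, and 0 members had an unadjusted p under 0.05, where 1.27% of all genes were higher and 1.23% lower. Of the 86, 45 had a higher and 41 a lower mean in FMT-SP, with a median change of 0.006, against 0.029 over all tested genes. Groups were separated in 0 members, where 0.565% of all genes were separated higher and 0.709% lower.

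The members of smallest p here were low genes. Ndufb4b measured 2.64, 3.05, 1.502 and 4.22 FPKM in FMT-SP 1 to 4, against 3.08, 3.496, 3.51 and 5.53 in FMT-DSS 1 to 4, a change of -0.37 ± 0.22 with an unadjusted p of 0.114. Cox8b averaged 1.15 ± 0.94 FPKM in FMT-SP, against 1.75 ± 0.39 in FMT-DSS, and Ndufa4l2 averaged 2.51 ± 0.77 in FMT-SP, against 1.92 ± 0.65 in FMT-DSS (SD, n = 4 each). In each of the 3 the groups overlapped. Among members above 30 FPKM the changes lay between -0.11 for Ndufs7 and 0.099 for Ndufs5, and the 95% interval of all 77 lay within 0.5 of 0 in either direction. Sdhb was at -0.07, Cox6b1 at 0.08, Cox7b at 0.09, Ndufb3 at 0.09 and Ndufb10 at 0.075. The median of 0.006 turned to -0.051 when FMT-SP 4 was left out, -0.016 when FMT-SP 3 was, -0.035 when FMT-DSS 1 was and -0.024 when FMT-DSS 2 was, so no direction can be read from it.

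FMT-SP against FMT-CON set the group with substance P beside FMT-CON, and it shares the FMT-CON libraries with the first comparison. No member passed: limma called 0 of 86 members and 0 of 12559 genes (0%), with a smallest adjusted p that rounds to 1. Of the 86 members, 79 had a lower mean in FMT-SP, with a median change of -0.12, against 53.3% of all tested genes and a median of -0.008. At an unadjusted p under 0.05 there were 0 members in either direction, where 0.295% of all genes were lower and 0.0637% higher. Groups were separated in 0 members, where 0.303% of all genes were separated lower and 0.191% higher.

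Cox5a again had the smallest p of the members, 0.0716 unadjusted. It measured 36.0, 32.9, 40.7 and 41.1 FPKM in FMT-SP 1 to 4, against the FMT-CON values given above, a change of -0.20 ± 0.10, and FMT-SP 3 and FMT-SP 4 overlapped FMT-CON 2. Cox7a1 averaged 1.84 ± 0.72 FPKM in FMT-SP, against 2.78 ± 0.68 in FMT-CON, a change of -0.43 ± 0.22 (limma, adjusted p rounding to 1). Ndufs4 averaged 39.3 ± 3.51 in FMT-SP, against 44.0 ± 2.40 in FMT-CON, and Ndufa7 132 ± 13.6 in FMT-SP, against 149 ± 10.2 in FMT-CON. Ndufb4b, Ndufb11, Uqcrb, Ndufb6, Ndufb1 and Ndufc2, next in order, had changes of -0.38, -0.17, -0.23, -0.17, -0.25 and -0.13. By complex, 36 of 39 members of complex I had lower means in FMT-SP (median -0.14), 3 of 4 of complex II (-0.034), 7 of 8 of complex III (-0.11), 17 of 18 of complex IV (-0.10) and 16 of 17 of complex V (-0.12). In 68 of the 77 members above 30 FPKM the 95% interval lay within 0.5 of 0, as it did for 65 in FMT-DSS against FMT-CON, so larger changes fell outside the interval for most of these members. The count at an unadjusted p under 0.05 was 5 when FMT-CON 2 or FMT-SP 4 was left out, 2 without FMT-SP 3, 1 without FMT-DSS 1 and 1 without the 3 libraries numbered 4, all lower in FMT-SP. With array weights per library it was 45, all lower, and 0 members passed after adjustment. The shares of all genes in these alternatives are not given here, so the counts cannot be set against the 0.295% of the fit as reported.

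**Figure D2:**
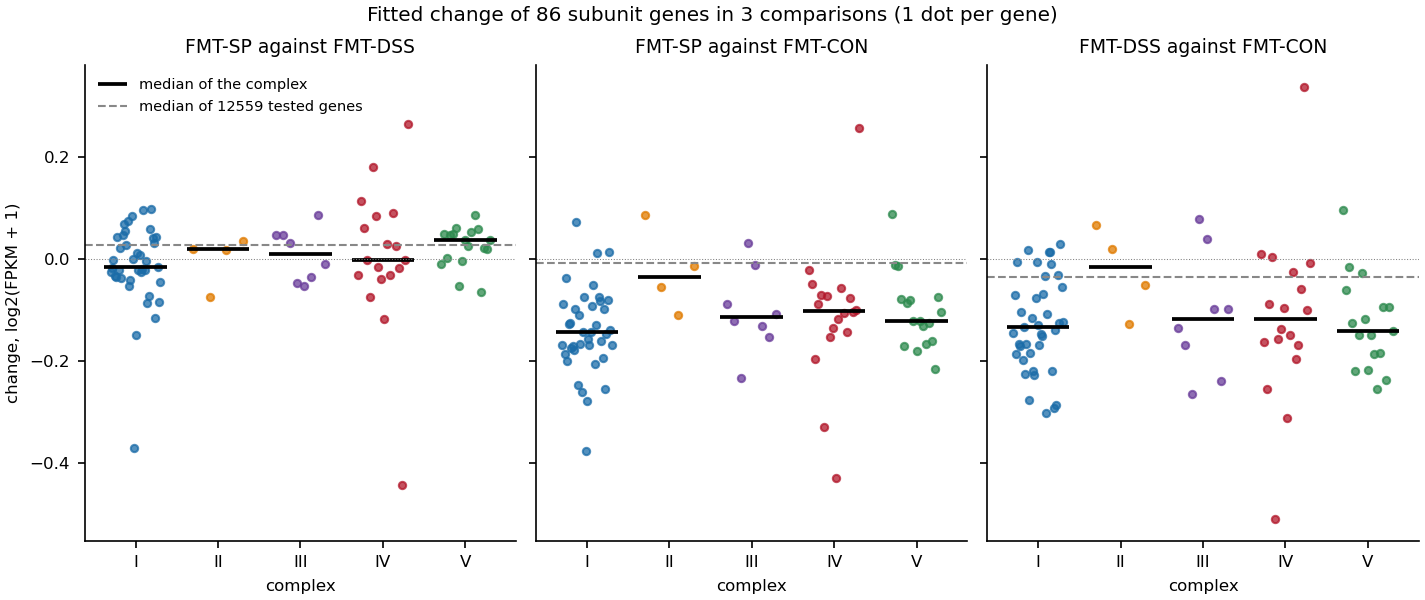
Fitted change on the log2(FPKM + 1) scale of each of the 86 tested subunit genes (dots) in 3 comparisons, grouped by complex; black bars are the medians of a complex and the dashed line is the median of all 12559 tested genes. In both comparisons with FMT-CON most dots of complexes I, III, IV and V lie below the dashed line, with medians of -0.14 to -0.10, and in FMT-SP against FMT-DSS they lie around it.

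The values of single libraries showed what these medians rest on. For each gene the mean over the 12 libraries was subtracted on the log2(FPKM + 1) scale, and the median of these deviations was taken over the members. It was -0.09, -0.20, 0.03 and 0.09 in FMT-SP 1 to 4, -0.17, -0.16, 0.02 and 0.14 in FMT-DSS 1 to 4, and 0.06, -0.08, 0.16 and 0.15 in FMT-CON 1 to 4. The group means of these medians were -0.044 ± 0.13 in FMT-SP, -0.043 ± 0.15 in FMT-DSS and 0.073 ± 0.11 in FMT-CON (SD, n = 4 each). FMT-SP 2 was the lowest of the 12 libraries for 38 members and FMT-CON 4 the highest for 20. FMT-SP 2 is the library with the most erythrocyte message, whose part in this was not tested. Complexes I, III, IV and V moved together from library to library. Complex II, whose 4 genes have transcripts of 1142 to 2900 bases, differed: its median was -0.075 in FMT-SP 2, where the other complexes stood at -0.21 to -0.20, and 0.11 in FMT-DSS 2, where they stood at -0.18 to -0.15. Parts of the other complexes with long transcripts varied. The core proteins of complex III had medians of -0.011 in FMT-SP 2 and 0.13 in FMT-DSS 2. Uqcrfs1, of 1363 bases, was at -0.21 and -0.01 in these libraries, and the catalytic core of complex I at -0.147 and 0.004. For all members of 1200 bases or more the medians were -0.089 and 0.014. The part of transcript length in the values of complex II was not tested.

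**Figure D3:**
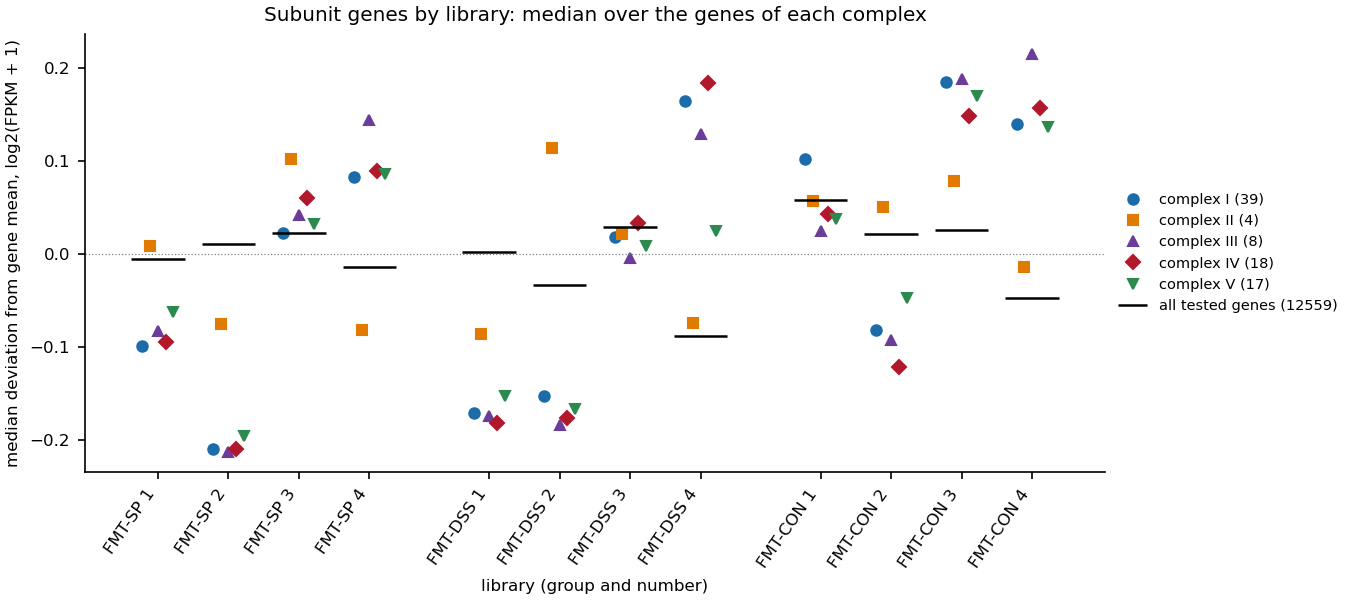
Median over the genes of each complex of the deviation from the gene mean, log2(FPKM + 1), in each of the 12 libraries; black bars are the median over all 12559 tested genes. Complexes I, III, IV and V stand at -0.21 to -0.20 in FMT-SP 2 and at 0.15 to 0.19 in FMT-CON 3, apart from the median of all genes at 0.01 and 0.03.

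The library pattern differed with transcript length. Of the 82 tested members with an annotated transcript, 47 are shorter than 750 bases, among them Cox5a, Cox8a, Ndufa7 and Uqcrh, and 19 are of 1200 bases or more, among them Ndufs1, Ndufs4, Sdha, Atp5a1 and the core proteins of complex III. In FMT-SP, 45 of the 47 short members were higher in library 4 than the mean of libraries 1 to 3, by a median of 0.20; in FMT-DSS it was 43 of 47 by 0.27, and in FMT-CON 39 of 47 by 0.15. Of the 19 long members it was 12, 11 and 11 in FMT-SP, FMT-DSS and FMT-CON, with median differences of 0.075, 0.075 and 0.005. The libraries numbered 4 are those with the highest share of mitochondrially encoded message.

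Single genes had library 4 as the highest or as the lowest of each group. Cox8a, of 550 bases, measured 651, 609, 697 and 835 FPKM in FMT-SP 1 to 4, 645, 663, 688 and 823 in FMT-DSS 1 to 4, and 635, 626, 843 and 849 in FMT-CON 1 to 4. It was highest in library 4 of every group. Sdha, of 2900 bases, measured 144, 153, 148 and 113 FPKM in FMT-SP 1 to 4, 147, 152, 139.7 and 112 in FMT-DSS 1 to 4, and 144, 146, 128 and 108 in FMT-CON 1 to 4, so that library 4 was the lowest of each group. Atp5a1, of 2573 bases, was likewise lowest in library 4 of each group, at 263, 266 and 259 FPKM in FMT-SP, FMT-DSS and FMT-CON, where the other 9 libraries ranged from 281 to 363. Ndufs1, of 2626 bases, was at 27.3, 29.4 and 27.0 FPKM in library 4 of FMT-SP, FMT-DSS and FMT-CON and at 30.8 to 35.7 elsewhere. These 4 examples were chosen after their values were seen, and the long ones do not stand for all long members. Of the 19 long members, library 4 was the lowest of its group for 6 in FMT-SP, 7 in FMT-DSS and 7 in FMT-CON. It was the highest for 8, 9 and 6 in these groups.

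**Figure D4:**
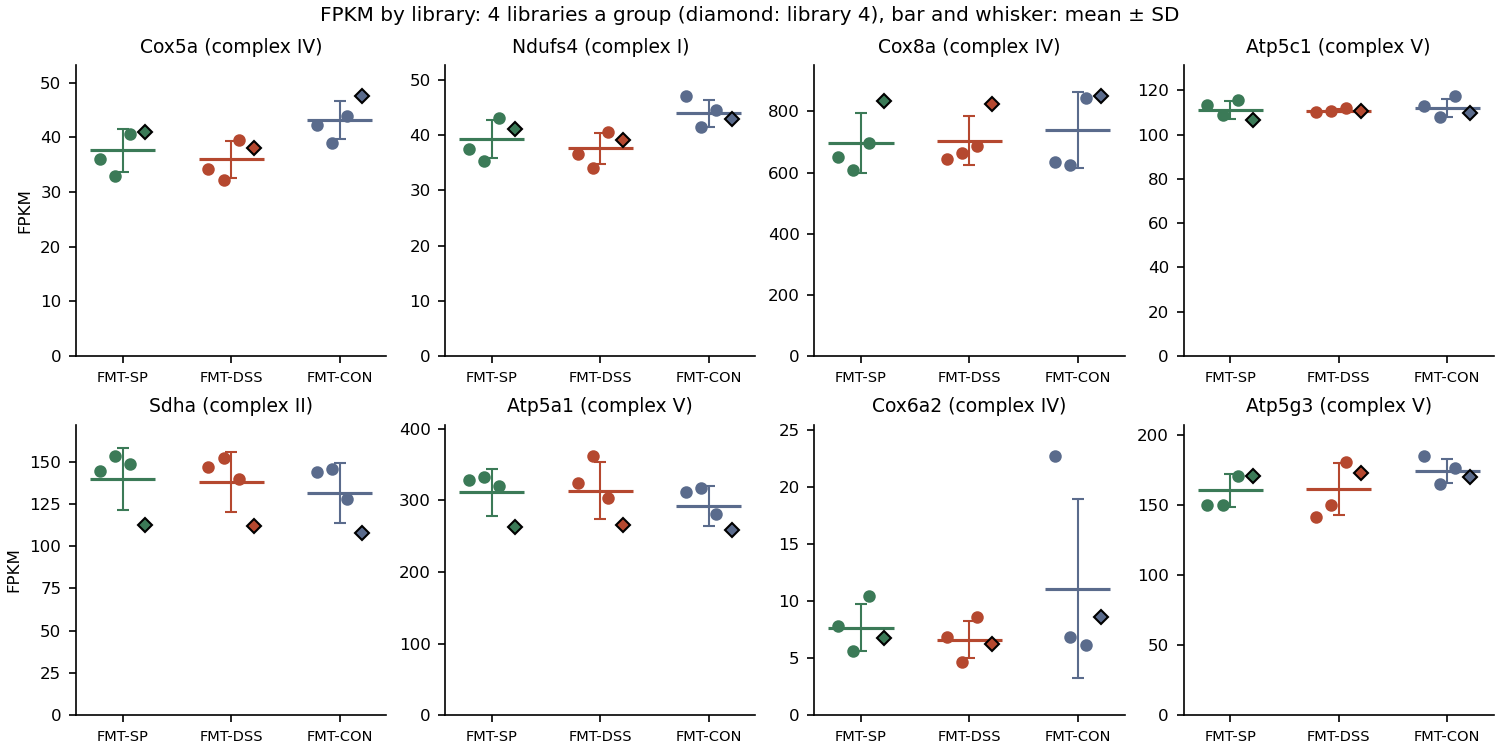
FPKM of 8 subunit genes in each library, FMT-SP, FMT-DSS and FMT-CON from left to right, with mean and SD bars and the library numbered 4 of each group as a diamond; axes start at 0. Cox8a is highest and Sdha and Atp5a1 are lowest in library 4 of each group, Atp5c1 stays between 107 and 117 FPKM, and Cox6a2 has a single high value of 22.8 FPKM in FMT-CON 1.

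Outside the pathway, short genes were likewise mostly higher in library 4, while long genes, unlike the long members, were mostly lower there. The long members and the other long genes were not matched in length or level: members reach 2900 bases and tested genes 21697. Among the 502 other tested genes under 750 bases, 78.7%, 74.7% and 72.7% were higher in library 4 of FMT-SP, FMT-DSS and FMT-CON, by medians of 0.25, 0.23 and 0.15. Among the 10507 others of 1200 bases or more it was 42.1%, 37.2% and 35.7%, with medians of -0.061, -0.13 and -0.12. All 13 mitochondrially encoded genes were higher in library 4 of FMT-SP and FMT-CON, and 11 of 13 in FMT-DSS. Between groups, the 63 members under 1200 bases had a median change of -0.14 in FMT-DSS against FMT-CON with 59 lower, where other genes of that length had -0.072 with 70.0% lower. The 19 members of 1200 bases or more had -0.054 with 11 lower, where other such genes had -0.028 with 57.8% lower. In FMT-SP against FMT-CON, the members under 1200 bases had -0.13 with 62 of 63 lower, and other genes of that length -0.081 with 77.7% lower. The members of 1200 bases or more had -0.074 there with 13 of 19 (68.4%) lower, where other such genes had 0.001 with 49.2% lower.

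When the trend with length was subtracted from each library, an alternative added after the libraries had been seen to differ by length, the members' median change became -0.031 in FMT-DSS against FMT-CON, with 52 of 82 members lower, and -0.028 in FMT-SP against FMT-CON, with 53 of 82 lower. The number of members at an unadjusted p under 0.05 in FMT-DSS against FMT-CON was again 5, of which Cox5a, Ndufs4 and Uqcrh were among the 5 named above. The share of all genes at that threshold after this step is not given here. What gave rise to the difference in length between libraries was not tested.

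**Figure D5:**
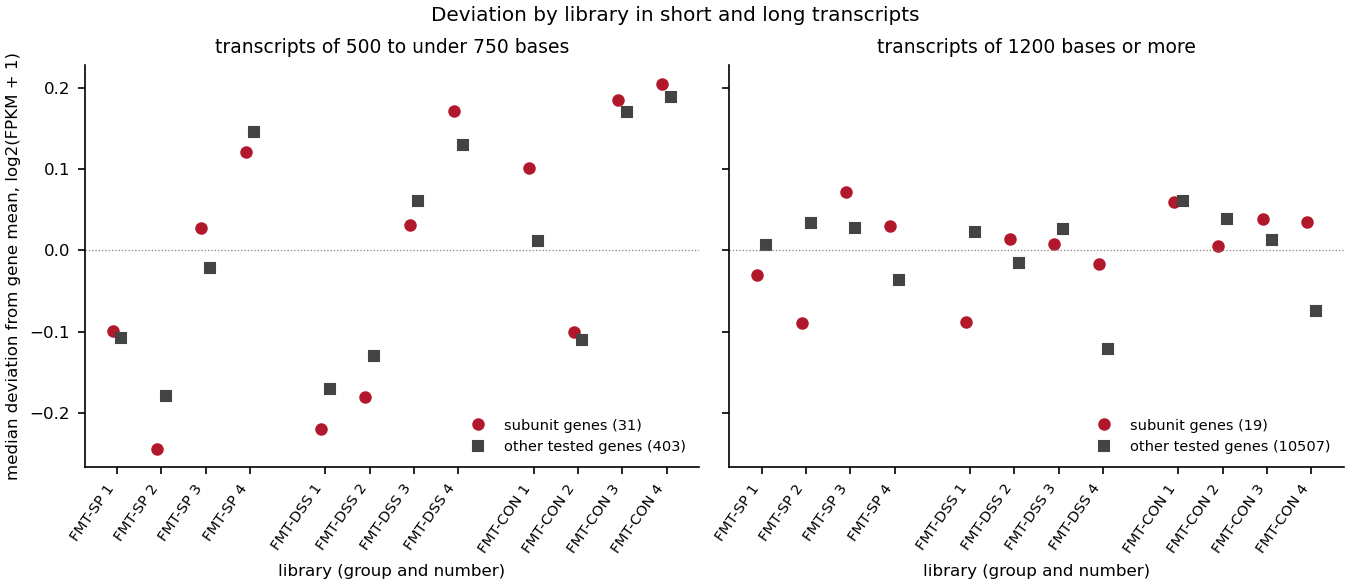
Median deviation from the gene mean, log2(FPKM + 1), of subunit genes (circles) and other tested genes (squares) in each library, for transcripts of 500 to under 750 bases (left) and of 1200 bases or more (right). Short subunit genes and short other genes move together, from -0.24 and -0.18 in FMT-SP 2 to 0.205 and 0.188 in FMT-CON 4, while long genes stay between -0.12 and 0.07.

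Other genes of the pathway gave no call either: 0 members of any list below passed limma's test in any comparison. Assembly factors, the helper proteins that build the complexes but stay out of them, had mostly lower means in FMT-DSS than in FMT-CON, with 17 of 18 lower for complex I, 4 of 4 for complex II, 5 of 6 for complex III, 18 of 20 for complex IV and 4 of 5 for complex V, where 59.7% of all tested genes were lower. At an unadjusted p under 0.05 stood 2, 1, 1, 3 and 2 of these for complexes I to V, all lower, where 2.81% of all tested genes were lower and 1.25% higher. Coa6, which acts in copper delivery to complex IV, measured 12.7, 9.06, 16.4 and 8.93 FPKM in FMT-DSS 1 to 4, against 15.4, 15.2, 17.8 and 17.3 in FMT-CON 1 to 4, a change of -0.48 ± 0.16. Coa4, another assembly factor of complex IV, averaged 1.46 ± 0.87 FPKM in FMT-DSS, against 2.84 ± 0.28 in FMT-CON (SD, n = 4 each). Both were lowest in FMT-DSS 2 and FMT-DSS 4, the libraries low in the microglia markers Cx3cr1, P2ry12 and Tmem119 but not in C1qa. The part of microglia in these values was not tested. Ndufaf2, an assembly factor of complex I, was at -0.32 ± 0.12 in FMT-DSS against FMT-CON, and Tmem70, which helps to build the ATP synthase, at -0.22 ± 0.08 in that comparison. In FMT-SP against FMT-DSS, where 41.1% of all tested genes were lower, the assembly factors had mostly higher means, 14 of 18 for complex I, 3 of 4 for complex II, 4 of 6 for complex III, 17 of 20 for complex IV and 4 of 5 for complex V, and both comparisons share the FMT-DSS libraries. Against FMT-CON, the means in FMT-SP were still mostly lower, where 53.3% of all tested genes were. It was 15 of 18 for complex I, 4 of 4 for complex II, 4 of 6 for complex III, 14 of 20 for complex IV and 4 of 5 for complex V.

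Of the subunits, electron carriers and coenzyme Q genes that the naming rule misses, 12 of 12 had lower means in FMT-DSS than in FMT-CON, where 59.7% of all tested genes did, and 11 of 12 in FMT-SP than in FMT-CON, where 53.3% did. Cycs, which encodes cytochrome c, the carrier between complexes III and IV, averaged 31.0 ± 2.34 FPKM in FMT-SP, 27.2 ± 2.19 in FMT-DSS and 33.2 ± 2.24 in FMT-CON (SD, n = 4 each). Its change was -0.28 ± 0.09 in FMT-DSS against FMT-CON, with an unadjusted limma p of 0.00677 and an adjusted p of 0.966. Ndufab1, the acyl carrier protein that is part of complex I, averaged 25.4 ± 3.07 FPKM in FMT-SP, 24.8 ± 2.90 in FMT-DSS and 30.7 ± 3.16 in FMT-CON. All FMT-DSS libraries lay below all FMT-CON libraries for Cycs, at most 30.2 FPKM against at least 30.4, and the groups overlapped for Ndufab1. Pdss2, which makes the side chain of coenzyme Q, was the other gene of the list so separated, at most 1.88 FPKM in FMT-DSS against at least 1.94 in FMT-CON, and 1.23% of all tested genes were separated in that direction.

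The enzymes of the citric acid cycle, which feed NADH and succinate into the chain, showed no common direction: 11 of 17 were lower in FMT-DSS than in FMT-CON (median change -0.026) and 8 of 17 in FMT-SP than in FMT-CON. Idh2, the mitochondrial NADP-linked isocitrate dehydrogenase, averaged 9.86 ± 0.57 FPKM in FMT-SP, 12.4 ± 2.34 in FMT-DSS and 9.68 ± 1.13 in FMT-CON, the opposite direction to most subunits. Of the regulators of mitochondrial biogenesis, 8 of 11 (72.7%) were lower in FMT-DSS than in FMT-CON, near the 59.7% of all tested genes. Gabpa, which encodes the DNA-binding subunit of the ETS factor GABP, averaged 5.55 ± 0.85 FPKM in FMT-SP, 3.97 ± 0.92 in FMT-DSS and 5.54 ± 0.68 in FMT-CON. Its change was -0.41 ± 0.14 in FMT-DSS against FMT-CON (limma, unadjusted p of 0.0149, adjusted 0.966). Of the membrane and import genes, 12 of 17 (70.6%) were lower in FMT-DSS than in FMT-CON, also near that share, among them Chchd3, a cristae protein, at -0.24 ± 0.09. The mitochondrially encoded subunits had 8 of 13 higher and 5 lower in FMT-DSS than in FMT-CON, with a median of 0.02, where most nuclear subunits had lower means.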

How the data were processed

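RNA-seq levels of hippocampal tissue were read from 1 table of FPKM values that the authors deposited, with 12 columns named for the samples, each mapped to its label. Per the submitters' processing notes, HISAT2 2.0 and the build mm8 were used; the sources used here do not give the counting tool or the gene annotation. The table holds FPKM alone, so no count model was fitted. FPKM steps of low genes gave an estimate of depth, 31.6 to 37.1 M fragments per library, in which the deepest library had 1.17 times the fragments of the shallowest. At such depth a member of 30 FPKM or more rests on a median of at least 664 fragments per library.

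Values were transformed as log2(FPKM + 1) and fitted with limma 3.58.1 in R 4.3.3, with the variance trend option, on all 12 libraries and the 12559 genes whose mean over them reached 1 FPKM. The contrasts were FMT-SP against FMT-DSS, FMT-SP against FMT-CON and FMT-DSS against FMT-CON, all two-sided. The Benjamini-Hochberg adjustment ran over all 12559 genes, and an adjusted p under 0.05 counted as a call. A fold change on this scale understates the change of low genes. The fit was also run on simulated data with known changes, in which each gene was drawn independently. That run cannot show how the fit behaves where many genes shift together, as they did in these libraries. Transcript lengths and near-identical copies came from GENCODE vM21 (blastn 2.17.0), matched by symbol for 83 of 87 members, and promoter windows from RefSeq GRCm38.p6, neither of which is the build of the table; no coordinates were carried between builds.

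The genes named with values are the 10 members of smallest unadjusted p in each comparison, the highest and lowest of each complex, the tissue forms and gene copies, the catalytic cores and up to 4 genes of each pathway list per comparison; others were named after their values were seen. The values of 1 gene that the rule names are not reported here. The members, gene lists and alternatives were chosen with earlier results of these data known. Alternatives covered the pseudocount, the filter, rescaling, quantile normalization, array weights, the variance trend, a replicate block and leaving out libraries singly or, where earlier results set them apart, together (the 3 numbered 4; FMT-DSS 2 with FMT-DSS 4). Removing the trend with transcript length was added after seeing the data. Same-numbered libraries of FMT-SP and FMT-DSS had deviations that correlated at 0.108 to 0.694 over the 4 pairs. Those of FMT-DSS and FMT-CON correlated at 0.007 to 0.723, and those of FMT-SP and FMT-CON at -0.451 to 0.841. No label says that a number pairs libraries, so the replicate block stands as an alternative only. It called 0 members in each comparison, as did the fit without it.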

Additional observations from a re-analysis of the deposited data

Results flagged for a closer look

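Among 195 sets of 4 libraries, each a named subunit gene, a complex median or a share of FPKM in 1 group, 4 had a library far from the other 3 by Dixon's ratio, where chance gives about 9.8, or 1 in 20. Cox6a2, the muscle form of complex IV subunit 6a, measured 22.77 FPKM in FMT-CON 1 and 6.18 to 8.62 in the other FMT-CON libraries. Ndufb6, an accessory subunit of complex I, measured 48.63 FPKM in FMT-SP 2, where the other FMT-SP libraries lay between 62.9 and 63.6. Cox7b of complex IV measured 172.1 FPKM in FMT-CON 2, where the other FMT-CON libraries lay between 201 and 203. Uqcrc2, a core protein of complex III, measured 89.55 FPKM in FMT-CON 4, against 102 in each of the other 3. These are values of single libraries, and their causes were not tested.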

How the results depend on the processing

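In all 25 alternatives limma called 0 members and 0 genes in each comparison, so no call changed. The members' median change kept its sign in FMT-DSS against FMT-CON and in FMT-SP against FMT-CON, and turned negative in several settings of FMT-SP against FMT-DSS. Leaving out single libraries gave medians of -0.051 to 0.059 in FMT-SP against FMT-DSS, -0.164 to -0.061 in FMT-SP against FMT-CON and -0.175 to -0.074 in FMT-DSS against FMT-CON. Median-ratio rescaling gave -0.088 in FMT-DSS against FMT-CON, with 0 members at an unadjusted p under 0.05, against 5 as reported, and removing the length trend gave -0.031 there. Members lower at an unadjusted p under 0.05 numbered 13 with array weights and 3 without the variance trend in FMT-DSS against FMT-CON. In FMT-SP against FMT-CON they numbered 45 with array weights, against 0 as reported. The cause was not tested, and the shares of all genes in these alternatives are not given here.

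Same-numbered libraries of FMT-SP and FMT-CON correlated in their deviations at -0.451 to 0.841, and those of FMT-DSS and FMT-CON at 0.007 to 0.723. No label says what a number shares. In FMT-SP against FMT-DSS the 4 pairs correlated at 0.108 to 0.694, but FMT-SP 3 correlated best with FMT-DSS 1, at 0.196. Within each number the members' median deviation was highest in FMT-CON. With the replicate block the count was 29 in FMT-DSS against FMT-CON, 18 in FMT-SP against FMT-CON and 0 in FMT-SP against FMT-DSS, and 0 members passed after adjustment. The shares of all genes with the block are not given here either. Signs were followed only for the tested members named by rule, a set chosen in part by smallest p. Over all alternatives, 83 of their 1398 changes turned sign in FMT-DSS against FMT-CON, 56 of 1398 in FMT-SP against FMT-CON and 143 of 1398 in FMT-SP against FMT-DSS.

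Depth limits the tissue forms of complex IV and the gene copies of complex I, and 4 libraries per group limit the rest: half-widths of the 95% intervals had a median of 0.25 on the log2(FPKM + 1) scale.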
